A study of Mus musculus with 6 samples.

Results

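The genes of 3 hormones that the pituitary gland makes were followed in the brains of rat offspring at D21: Gh1 (ENSRNOG00000011207), Prl (ENSRNOG00000017374) and Pomc (ENSRNOG00000012686). They were chosen by their identifiers, with earlier results of these data known. All 3 of 3 were found among the 32623 genes of the count table. The pairing of these identifiers with symbols was given with the request and could not be checked, as the tables at hand are of the mouse. The brains came from 3 young whose dams ate a high-fat diet before mating, in pregnancy and in lactation (the MHFD group) and from 3 whose dams ate a normal diet throughout (the MND group), and there was a separate library for every brain. The paper describes Sprague-Dawley rats, whereas the sample labels name mouse and the strain C57BL/6. All groups were at the last day of lactation, and the offspring had no treatment of their own by then. The sex and litter of the sequenced animals, and whether the pituitary stayed with the brain at dissection, are not given in the sources used here. Where animals of a group shared a dam, p-values measure the spread between these animals only.

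Gh1 encodes growth hormone, made by the somatotrophs of the anterior pituitary. Prl encodes prolactin, made by the lactotrophs of the same lobe, and its release is held down by dopamine from the hypothalamus. Pomc encodes proopiomelanocortin, a precursor that is cut into ACTH, the melanocortins and beta-endorphin. Corticotrophs and the melanotrophs of the intermediate lobe make Pomc, but so do neurons of the arcuate nucleus of the hypothalamus, which restrain feeding, and a small group of neurons in the brain stem. Pomc therefore belongs to the brain as well as to the gland, while Gh1 and Prl are best known as products of the gland. The gland hangs from the base of the brain on a thin stalk and may or may not come away with it.

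The total counts lay between 43679373 and 61385917 per library, and the ranges of the groups overlapped. MHFD replicate 3 had the lowest total and stood apart in another way. It held 16 genes that reached 100 counts or more and exceeded all other libraries at least 8-fold, whereas the other libraries each held 0 to 4 such genes. None of these libraries was left out of the comparisons below unless stated. Levels are given as CPM, the count scaled to library size after TMM correction. Markers of brain cell types and of other pituitary cells could not be checked, as their identifiers are not paired with symbols here.

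Gh1 was counted in 1 of the 6 brains. It had 42 counts in MHFD replicate 3 and 0 counts in MHFD replicates 1 and 2 and in MND replicates 1, 2 and 3. The level in MHFD replicate 3 was 0.960 CPM, with an exact Poisson 95% interval of 0.692 to 1.30 CPM that covers counting error only. In the other 5 libraries a count of 0 allows up to 3 counts, or between 0.0490 and 0.0632 CPM depending on depth. Against this limit, the measured level in MHFD replicate 3 was 15.2-fold above that of MHFD replicate 2, and further above that of each other library. This fold takes the 42 counts as measured and leaves out their counting error. In every library genes piled up at 8 counts relative to the counts next to it. Whether a fragment could add 4 counts was not tested. With a limit of 12 counts, which is 3 fragments at 4 counts each, the smallest such fold was 3.80. The counting error left out would be wider if each fragment added 4 counts. The 42 counts are not a whole multiple of 4, so they cannot all have come from fragments that added 4 counts. The measured Gh1 level exceeded the limit of all other libraries at both 3 and 12 counts. It belonged to 1 animal of its group, and the other 2 MHFD animals looked like the MND animals.

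The library that held Gh1 was the same that held 16 genes far above the other brains. Whether these measurements share a source was not tested. Gh1 itself fell short of the 100 counts that define those 16 genes. Among genes that passed the filter on low counts and spanned at least 2-fold between libraries, the one whose log2 CPM followed Gh1 most closely over the 6 libraries was ENSRNOG00000010378 (Pearson r = 0.99, n = 6, the highest of 5368 genes compared). It had 1469 counts in MHFD replicate 3, and its other libraries held 29 and 48 counts in the MHFD group and 31, 29 and 37 counts in the MND group. The likeness rests on MHFD replicate 3 alone, which every gene that is high in that library would share.

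Prl was also counted in 1 of the 6 brains, and in a different one. It had 8 counts in MND replicate 3 and 0 counts in MND replicates 1 and 2 and in all 3 MHFD replicates. Its level there was 0.155 CPM (exact Poisson 95% interval 0.0667 to 0.305 CPM, counting error only). This lies above the limit of 3 counts but under that of 12 counts, so no fold is given. In the same library 265 genes had exactly 8 counts, against 135 with 7 and 95 with 9. The Prl value thus lies at a count where genes pile up. Prl is the founder of a family of related genes that act mainly in the placenta in rodents, and how reads shared within the family were assigned is not given in the sources used here. The gene that followed Prl most closely over the 6 libraries, looked up after the values were seen, was ENSRNOG00000032585 (Pearson r = 0.99, n = 6, the highest of 5368 genes compared). It had 256 CPM in MND replicate 3, against 57.5 and 64.4 CPM in the other MND libraries and 48.6, 62.1 and 62.3 CPM in the MHFD libraries, and this likeness rests on MND replicate 3 alone.

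**Figure D1:**
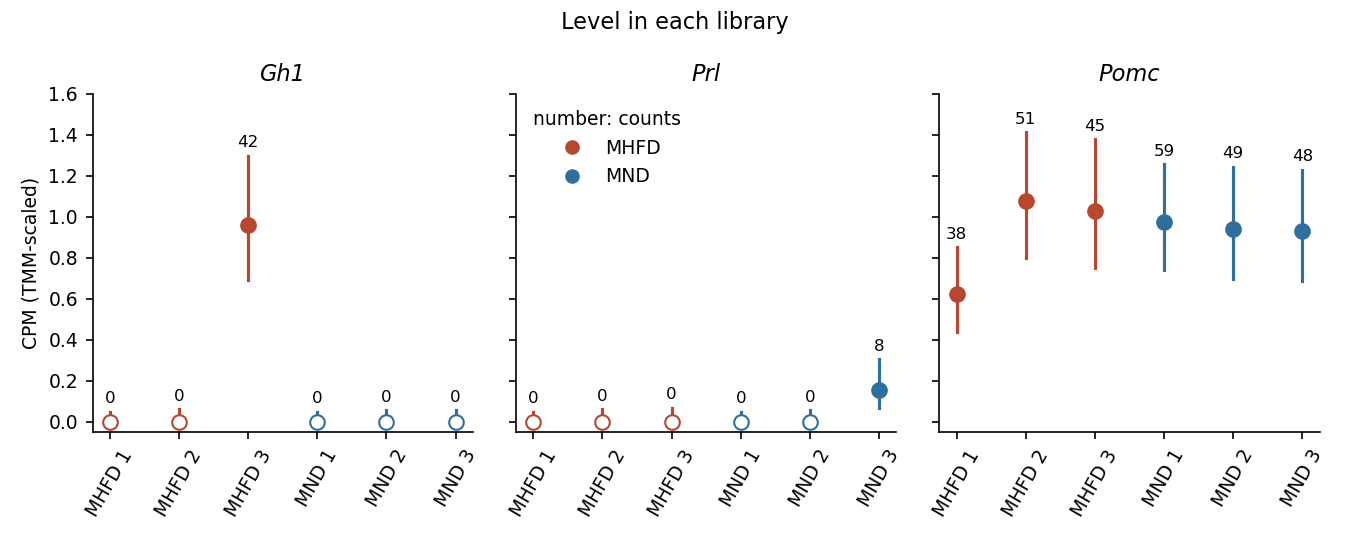
Level of Gh1, Prl and Pomc in each library (y axis, TMM-scaled CPM; x axis, the 3 MHFD and 3 MND libraries), with the count printed above each point. Bars are exact Poisson 95% intervals, open circles are counts of 0 and their bars reach the level of 3 counts. Gh1 rises above 0 in MHFD replicate 3 alone and Prl in MND replicate 3 alone, while Pomc is present in all 6 libraries.

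No brain held counts of both Gh1 and Prl. MHFD replicates 1 and 2 and MND replicates 1 and 2 had 0 counts for both hormones, at totals of 46992467 to 61385917 counts. In MHFD replicate 3, where Gh1 was counted, Prl had 0 counts, which allows up to 0.0686 CPM. In MND replicate 3, where Prl was counted, Gh1 had 0 counts, which allows up to 0.0580 CPM. Pomc did not stand out in either of these libraries, with 1.03 CPM in MHFD replicate 3 and 0.927 CPM in MND replicate 3, both inside the range of the other brains.

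Counts confined to a single library were compared with the rest of the table. Of all 32623 genes, 19 (0.0582%) had at least the 42 counts of Gh1 in 1 library and 0 in the other 5, and 7 of these 19 were in MHFD replicate 3, which held the most. The other libraries held 4, 2, 4, 2 and 0 such genes in the order MHFD replicates 1 and 2 and MND replicates 1, 2 and 3. Gh1 is itself among the 19 and the 7, as its own count set the threshold. The 32623 genes include 11043 without a count in any library, which could not show the pattern. Within these limits, a pattern as strong as that of Gh1 was rare in the table but not limited to its library. At the 8 counts of Prl the pattern was more frequent, with 302 genes (0.926%) at that level or above in 1 library and 0 in the other 5. MND replicate 3 held 42 of these genes, the fewest of any library, and 20 of the 42 had exactly 8 counts. Of the 50 genes of this kind in MHFD replicate 3, 6 had more counts than Gh1, the highest with 378 counts.

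**Figure D2:**
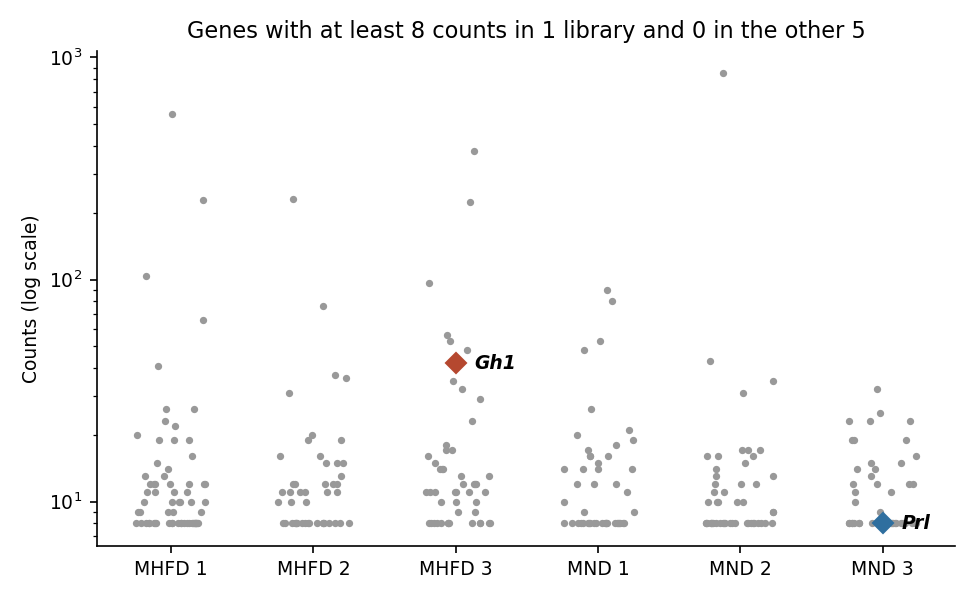
Each point is a gene with at least 8 counts in the library named on the x axis and 0 counts in the other 5 (y axis, counts, log scale); points are spread sideways for legibility. Gh1, with 42 counts, lies among the higher points of MHFD replicate 3, and Prl, with 8 counts, lies in the lowest row of MND replicate 3.

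Neither Gh1 nor Prl passed the filter on low counts, so neither entered the test between the groups; a fit without the filter is given with the other processing choices. Summed over a group, Gh1 had 42 counts in MHFD and 0 in MND, and Prl had 0 counts in MHFD and 8 in MND. Each of these sums came from 1 animal. Without MHFD replicate 3, Gh1 was at 0 in every remaining library of both groups, and without MND replicate 3 the same was true of Prl. The values of the groups overlapped at 0 for both genes. A difference in either hormone by maternal diet was therefore not detectable at this depth and with these animals, which is not the same as its absence.

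Pomc was counted in all 6 brains at a low level. In the MHFD group, replicates 1, 2 and 3 had 38, 51 and 45 Pomc counts, or 0.621, 1.07 and 1.03 CPM. The MND replicates had 59, 49 and 48 counts in the same order, or 0.973, 0.941 and 0.927 CPM. MHFD replicate 1 had the lowest level although its library was the deepest, and MHFD replicates 2 and 3 had the highest levels, so the MND values lay between those of the MHFD group. In order, the levels rose from MHFD replicate 1 through MND replicates 3, 2 and 1 to MHFD replicates 3 and 2. The exact Poisson 95% intervals of all 6 libraries shared the range from 0.800 to 0.852 CPM. Overlap of intervals is not a test of difference, and single libraries were not tested against each other. The highest brain was 1.73-fold above the lowest. In each library Pomc lay above between 11.0% and 14.5% of the tested genes, whose median level was 15.7 CPM. These shares rank reads per gene without regard to gene length.

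Pomc did not pass the test between the groups. The MHFD brains averaged 0.908 ± 0.249 CPM and the MND brains 0.947 ± 0.0233 CPM (mean ± SD, n = 3 per group). The log2 fold change of MHFD over MND was -0.06 (standard error 0.37), with an adjusted p of 0.976 from edgeR's quasi-likelihood test over 16776 genes and an unadjusted p of 0.868. Its 95% interval ran from -0.94 to 0.81 on the log2 scale, that is from 0.521-fold to 1.76-fold, so these libraries leave room for a moderate change in either direction. For comparison, an adjusted p under 0.05 was reached by 0.00596% of the tested genes, and an unadjusted p under 0.05 together with a 2-fold change or more by 2.06%. The groups did not overlap for 13.9% of the tested genes, and Pomc was not among them. In a bulk sample such as this, fewer Pomc cells, less Pomc RNA per cell and less carried-over pituitary could not have been told apart.

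The direction for Pomc depended on MHFD replicate 1. Without it, the remaining MHFD brains averaged 1.05 CPM and both lay above all MND brains, the lower at 1.03 CPM against the highest MND value of 0.973 CPM. The log2 fold change then turned to 0.15, with a standard error of 0.35 and edgeR's adjusted p at 0.873. In that fit 19% of the 17120 tested genes were higher in the MHFD group with no overlap, so this arrangement was common. Without MHFD replicate 3, the library that held Gh1, the Pomc log2 fold change was -0.16, with a standard error of 0.44 and edgeR's adjusted p at 0.985.

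**Figure D3:**
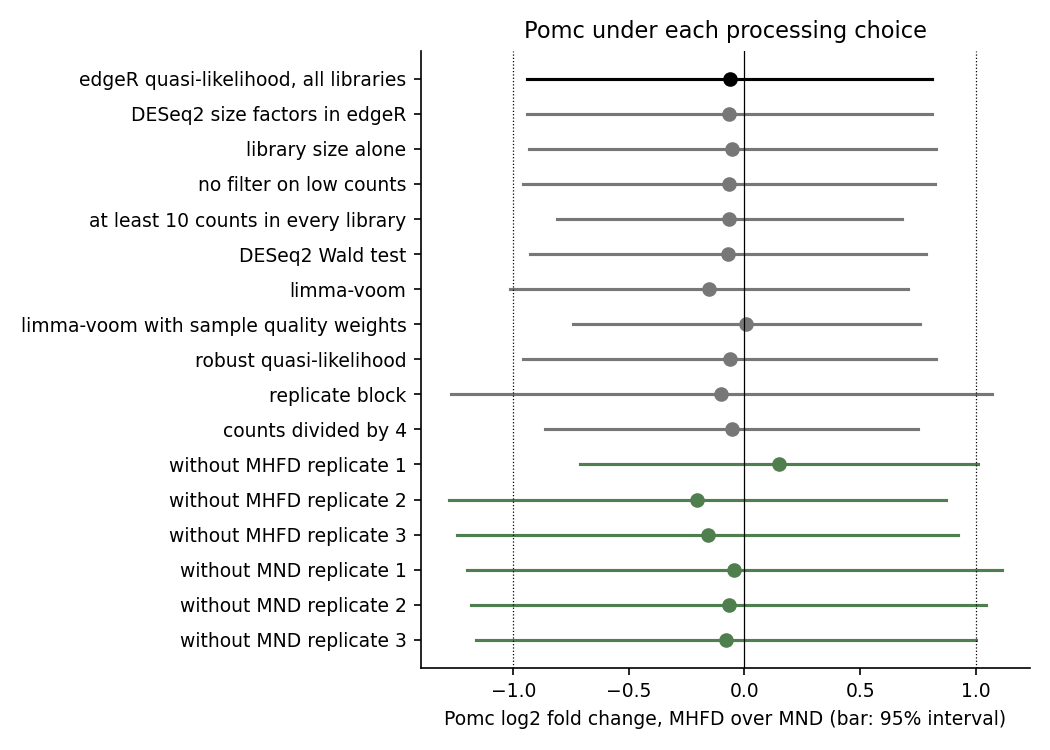
Log2 fold change of Pomc, MHFD over MND (x axis), with its 95% interval under each processing choice (y axis); black is the test reported, grey another choice with all 6 libraries, green a fit that leaves out 1 library. Dotted lines mark a 2-fold change in either direction. Every interval includes 0, and the estimate is above 0 only with sample quality weights and without MHFD replicate 1.

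Taken over both groups, Pomc varied little between brains for a gene of its level. Over the 6 libraries its coefficient of variation was 17.2%, against a median of 40.7% for the 1995 tested genes with a mean between 0.5 and 2 CPM, and 4.51% of those genes varied less. The counting error alone at the mean of 48.3 counts is 14.4% if each count is a fragment, and 28.8% if each fragment added 4 counts. The measured spread lay near the first value and under the second, and 1 of the 6 Pomc counts was a whole multiple of 4. Within the MND group the coefficient of variation was 2.47%, below the counting error under either reading, so the closeness of the 3 MND values does not show their precision. Within the MHFD group it was 27.5%, through the low value of MHFD replicate 1, against a median of 36.6% for the same 1995 genes. Of these genes, 33.6% varied less than Pomc within the MHFD group and 0.602% within the MND group.

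**Figure D4:**
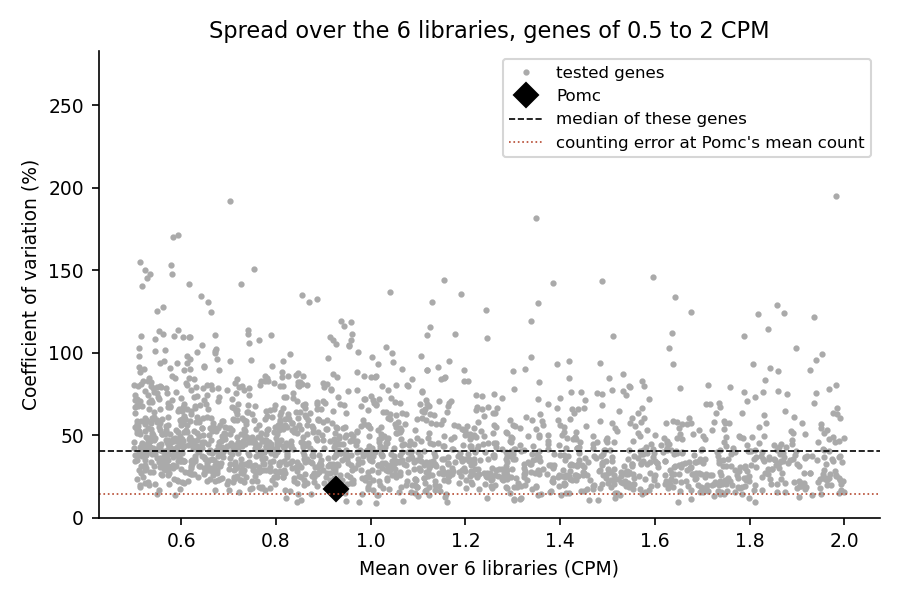
Coefficient of variation over the 6 libraries (y axis, %) against mean level (x axis, CPM) for the 1995 tested genes between 0.5 and 2 CPM. Pomc (black diamond, 17.2%) lies below the median of these genes (dashed line, 40.7%) and just above the counting error at its mean count (dotted line, 14.4%).

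Among tested genes that spanned at least 2-fold between libraries, ENSRNOG00000022417 followed the log2 CPM of Pomc most closely (Pearson r = 0.99, n = 6 libraries, the highest of 5368 genes compared). Pomc itself spanned 1.73-fold, so genes that varied as little as Pomc were left out of this search. The levels of ENSRNOG00000022417 were 1.83, 3.85 and 3.38 CPM in MHFD replicates 1, 2 and 3. They were 3.35, 3.13 and 2.99 CPM in the MND replicates in the same order. Like Pomc, this gene was lowest in MHFD replicate 1. Of the 5368 genes compared, 38 had an r over 0.95 with Pomc. A correlation over 6 libraries, selected as the highest of so many and on counts this low, is a description of these libraries only.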

How the data were processed

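RNA of 6 brains, 3 MHFD and 3 MND, was sequenced by a service company with one library per animal. The authors deposited whole counts per gene, without normalization. The labels' processing notes name Bowtie and the mouse build mm10, although all identifiers are rat Ensembl genes. The counting program, annotation release and strand setting are not given in the sources used here. Of the 32623 identifiers, 0 matched the mouse tables at hand, so gene lists, marker genes, positions and sequences were not used here. The members and planned lists were chosen with earlier results of these data known.

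Libraries were matched to samples by column name. In R 4.3.3, filterByExpr of edgeR 4.0.16 (minimum count 10, minimum total 15) kept 16776 genes, which were scaled by TMM and tested with the quasi-likelihood test with Benjamini-Hochberg adjustment. Each standard error was taken as |log2 fold change|/√F. Log2 CPM used a prior count of 2. Planned named genes were the 3 members and the gene most like Gh1 and Pomc by Pearson r, spanning at least 1 log2 unit. The gene most like Prl was added by the same rule after the values were seen. The programs were tested on simulated counts. Alternatives used DESeq2 1.42.0 and limma 3.58.1. Within groups, the chi-square per gene between libraries was at least 26.8, so no library was a copy of another of its group. The sources do not pair animals by replicate number, and the counts gave no sign of pairing.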

Additional observations from a re-analysis of the deposited data

How the results depend on the processing

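Pomc was refitted under 16 alternatives, and its log2 fold change stayed below 0 in 14 of them, with adjusted p-values from 0.873 to 0.996. It was 0.0078 with limma-voom and sample quality weights, and over the 6 fits lacking a library it lay between -0.20 and 0.15, the highest without MHFD replicate 1; the cause was not tested. With the replicate block it was -0.10 (adjusted p = 0.976), and no call on Pomc changed. Deviations of same-numbered libraries from their group means had correlations of -0.087, 0.0011 and -0.14.

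The number of genes at an adjusted p under 0.05, 1 in the test reported, was 196 with DESeq2's Wald test. It was 0 with at least 10 counts in every library, limma-voom without and with quality weights, the replicate block and the counts divided by 4, where 1482, 1424, 3108, 1078 and 1371 genes had an unadjusted p under 0.05. Over the fits lacking a library it lay between 0 (MHFD replicate 3 left out, with 902 genes at an unadjusted p under 0.05) and 28 (MHFD replicate 1 left out). The number at an unadjusted p under 0.05 and 2-fold, 345, was 633 with quality weights and between 275 and 629 over the fits lacking a library, the highest without MHFD replicate 1.

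With no filter, edgeR's log2 fold change was 7.07 for Gh1 (adjusted p = 0.680) and -4.49 for Prl (adjusted p = 0.711). Each rests on 1 library and the prior count. The filter removed both from the other planned fits. The limit of 12 counts was chosen after seeing the data. Differences in mean log2 ratio within a library (prior count 2), MHFD minus MND, were 2.26 (Gh1/Prl), 1.70 (Gh1/Pomc) and -0.56 (Prl/Pomc). They rest on single libraries and the prior count (3.50, 2.36 and -1.14 at 0.5). The first 2 were 0.77 and 0.22 without MHFD replicate 3, and the third 0.27 without MND replicate 3. Two-sided exact permutation p was 0.3 and 0.9 for the last 2 (minimum 0.1). Ties at 0 allow Gh1/Prl no p under the 0.6 found, so that test decides nothing.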
